A study of Mangifera indica with 4 samples.

Results

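Ripening of healthy Alphonso mango flesh was followed from 5 to 10 days after harvest in 2 of the 4 libraries of the series, taken from Mangifera indica fruit mesocarp. The healthy library of 5 days was labelled table green and that of 10 days mid ripe. The other 2 libraries held spongy flesh, a ripening disorder of this cultivar, at the same stages. Each group had 1 library, so the differences below describe these libraries and have no replicate check and no test. The labels do not say how many fruit a library came from, or whether they were pooled.

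The transcripts counted were chosen by their mean level. Smaller sets and single transcripts within them were picked by their difference between the stages, and this is said where they are described. Of 30582 listed transcripts, 22200 (72.6%) had a deposited mean normalized count of at least 50 over all 4 libraries. Loci 2 and 3 of the transcript assembly were kept apart, with 171 and 594 of these transcripts, since they took most reads of the 10-day library. The remaining 21435 transcripts came from 10184 loci. A normalized level is a read count divided by the authors' size factor of its library. The log2 ratio is that of 10 over 5 days after 1 was added to each level. The 100 transcripts just inside the minimum, with means up to 50.9, had a median log2 ratio of 0.07, and the 100 just outside, with means from 49.0, one of 0.16.

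Mango is a climacteric fruit, in which a burst of ethylene and of respiration accompanies ripening after harvest. During ripening of the flesh, starch is turned into sugars, enzymes loosen the pectin and other polymers of the cell wall, chlorophyll is lost and carotenoids build up. Volatile compounds, among them terpenes, lactones and furanones, give Alphonso its aroma. In the files a transcript has an assembly number and no gene name. None of the genes of these processes could be looked up, and the tissue label could not be checked against marker genes. Of 38372 mango genes in the reference table of assembly CATAS_Mindica_2.1, 0 matched a transcript number.

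The healthy 10-day library was filled by a few loci, so that far fewer of its reads fell on the rest of the transcriptome. Locus 2 held 21.6% of the recovered reads at 5 days and 72.3% at 10 days. Locus 3 held 25.4% and 14.7%. The single listed transcript of locus 5547 held 0.468% and 3.68%. The 299 listed transcripts of loci 14000 and over held 0.678% and 1.76%. All other loci together held 51.8% of the reads at 5 days and 7.61% at 10 days, that is 27361291 and 5706820 reads. In spongy flesh the same loci held 29.9% at 5 days and 30.8% at 10 days, so the share that differed between the stages in healthy flesh was nearly level there. The widest 95% Wilson interval of these shares was 0.0270 percentage points. Such intervals cover counting error only. The sources used here do not say how a read matching several transcripts was counted. In bulk tissue, fewer cells of a type and less RNA per cell cannot be told apart.

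**Figure D1:**
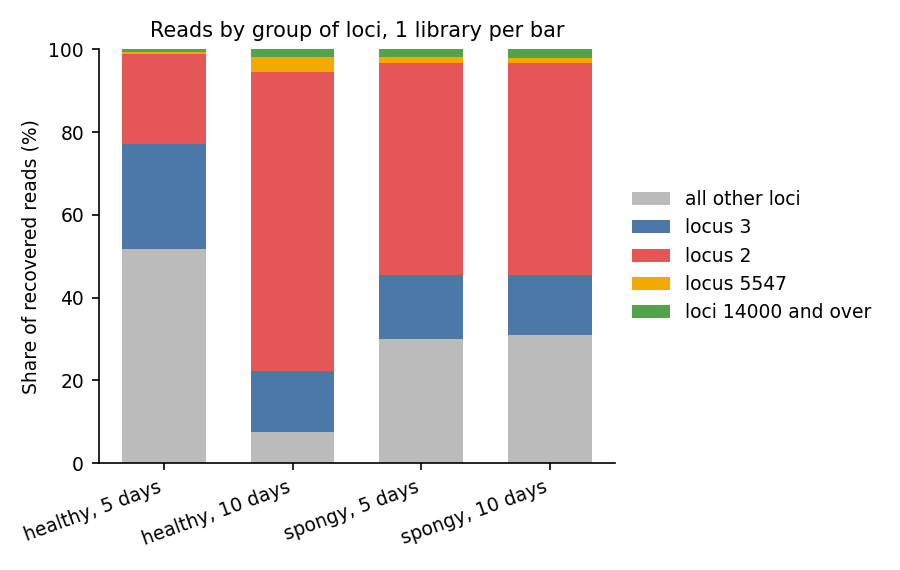
Share of recovered reads (%) held by locus 2, locus 3, locus 5547, loci 14000 and over and all other loci, with 1 library per bar. The grey part, all other loci, is 51.8% in healthy flesh at 5 days and 7.61% at 10 days, against 29.9% and 30.8% in spongy flesh.

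The depth behind each transcript followed from this. The recovered reads totalled 52778918 at 5 days and 75039503 at 10 days, but the median transcript outside loci 2 and 3 had 474 reads at 5 days and 95 at 10 days. Under 20 reads were found for 418 transcripts at 5 days and 1943 at 10 days. The size factors were 1.84 and 0.389. Few transcripts had no read. At 5 days 4 had 0 reads and at 10 days 15 had 0, which allows a normalized level of up to 1.63 and 7.71 (3 reads). None had 0 reads in both.

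The counts that follow depend on the scaling between the libraries. With the same total of reads, 20880 of the 21435 transcripts outside loci 2 and 3 were at least 2-fold lower, as described further on. Under the authors' size factors, used here, most of them stood at nearly the same normalized level at both stages, and more were lower than higher at 10 days. Within 2-fold were 17881 of 21435 transcripts (83.4%). At least 2-fold higher at 10 days were 1376 (6.42%), and at least 2-fold lower 2178 (10.2%). Among all 30533 transcripts with a read in a healthy library, without a level minimum, 9.17% were past 2-fold upward and 12.5% downward. The median log2 ratio was -0.01, the middle 50% ran from -0.45 to 0.38, and the range was -5.56 to 8.29. The 4-fold counts were 374 transcripts of 305 loci higher (1.74%) and 469 of 341 loci lower (2.19%). Over all transcripts with a read these shares were 2.99% and 3.27%. At 8-fold 156 were higher and 131 lower, and at 16-fold 79 were higher and 31 lower. Without locus 5547 and loci 14000 and over, described further on, the 8-fold counts were 109 and 130 and the 16-fold counts 38 and 31, so at 8-fold the higher transcripts were the more numerous only with these loci included.

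The counting error of the reads leaves fewer of these differences clear of the fold used. With the nearer end of the exact (Clopper-Pearson) 95% interval of the ratio past 2-fold, 639 transcripts were higher and 1099 lower. Past 4-fold they were 211 and 217. The upper end of that interval was a median 2.14 times the lower end for transcripts with a deposited mean of 50 to 200, 1.44 times for means of 200 to 1000 and 1.19 times above. The minimum also let some transcripts in through 1 library. In 321 transcripts a single library held over 75% of the summed level, and these were 11 through healthy flesh at 5 days, 36 through healthy flesh at 10 days, 16 through spongy flesh at 5 days and 258 through spongy flesh at 10 days. The first 11 were all at least 2-fold lower and the next 36 all at least 2-fold higher, as their choice requires. Without the 321, the 2-fold counts were 1184 higher and 2142 lower and the 4-fold counts 252 and 451.

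**Figure D2:**
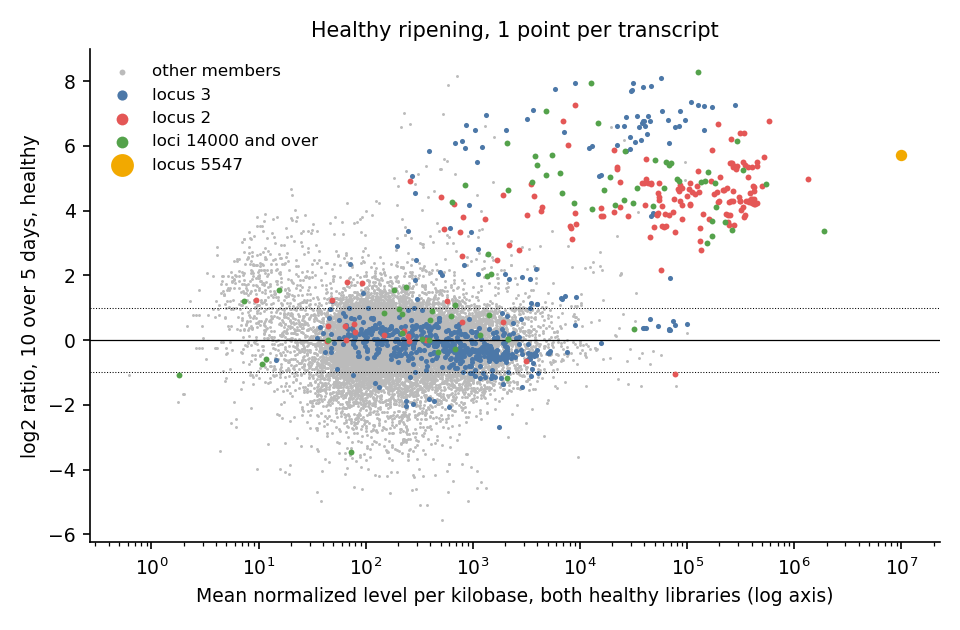
The log2 ratio of 10 over 5 days in healthy flesh against the mean normalized level per kilobase of both healthy libraries (log axis), with 1 point per transcript and dotted lines at 2-fold. Under the authors' size factors the grey transcripts centre on 0 (median -0.01). Most of locus 2 (median 4.28), many of loci 14000 and over (median 4.12) and a set of locus 3 lie far above it.

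The greatest gains and losses in level per kilobase among transcripts at least 4-fold apart, with at most 1 per locus, are given one by one. Locus_5547_Transcript_1_3_Confidence_0.965_Length_364 had a normalized level of 134366 in healthy flesh at 5 days and 7104638 at 10 days, with 246846 and 2765029 reads. Its level in spongy flesh was 631283 at 5 days and 678062 at 10 days. It was lowest in healthy flesh at 5 days and highest at 10 days, with both spongy libraries between. The ratio in healthy flesh was 52.9-fold (52.7 to 53.1) and in spongy flesh 1.07-fold (1.07 to 1.08). It had the highest reads per kilobase of all transcripts outside loci 2 and 3 in each of the 4 libraries.

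Locus_14262_Transcript_1_1_Confidence_1.000_Length_226 was second by reads per kilobase in each library. Its normalized level was 75634 in healthy flesh at 5 days and 779216 at 10 days, a ratio of 10.3 (10.2 to 10.4). In spongy flesh it was 281471 at 5 days and 375435 at 10 days, a ratio of 1.33 (1.33 to 1.34). Both spongy levels lay between the healthy ones under the authors' size factors. As a share of all reads it held 0.263% and 0.404% in healthy flesh and 0.572% and 0.736% in spongy flesh at 5 and 10 days, so on that scale both spongy libraries lay above the healthy ones. The shares of locus 5547 were 0.468% and 3.68% in healthy and 1.28% and 1.33% in spongy flesh, with the spongy libraries between on either scale. With the same total of reads in both healthy libraries its log2 ratio was 0.62, under 2-fold, and that of locus 5547 was 2.98.

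Of the transcripts that were lower, Locus_1732_Transcript_34_35_Confidence_0.192_Length_1578 lost the most level per kilobase. Its normalized level was 27820 in healthy flesh at 5 days and 2287 at 10 days, with 51109 and 890 reads, a level 12.2-fold lower (11.4 to 13.0). In spongy flesh it was 68332 at 5 days and 51428 at 10 days, 1.33-fold lower (1.31 to 1.34). The 10-day healthy library was the lowest of the 4, and the order of this transcript by reads per kilobase went from 31 to 941 in healthy flesh and from 26 to 34 in spongy flesh.

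Locus_3946_Transcript_1_1_Confidence_0.000_Length_1212 had a normalized level of 9988 in healthy flesh at 5 days and 1277 at 10 days, with 18350 and 497 reads. It was 7.82-fold lower (7.15 to 8.57). In spongy flesh it was 13790 and 6943, 1.99-fold lower (1.93 to 2.04). Both kinds of flesh had the lower level at 10 days, and the healthy library of that day was the lowest. Its place by reads per kilobase went from 74 to 1430 in healthy flesh. With the same total of reads per library the log2 ratios of these last transcripts were -6.35 and -5.71, against -3.60 and -2.97 under the authors' scaling.

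Locus 2 was higher at 10 days almost as a whole. Of its 171 transcripts, 156 had a ratio of 2 or more and 1 of 0.5 or less, against 6.42% and 10.2% of the transcripts outside loci 2 and 3. Its median transcript had a normalized level of 14531 at 5 days and 317807 at 10 days in healthy flesh, and 56604 and 63514 in spongy flesh. The difference was found at every length. The median log2 ratio was 3.91 for the 66 transcripts under 1000 nt, 4.30 for the 30 of 1000 to 2000 nt, 4.23 for the 43 of 2000 to 4000 nt and 4.55 for the 32 of 4000 nt and over, all of which were at least 4-fold higher. The healthy 10-day library had the highest level of the 4 for 149 of the 171, and over 75% of the summed level for 32. The 15 transcripts that were not 2-fold higher held 0.280% and 0.0217% of the reads. In spongy flesh 155 of the 171 were within 2-fold between the stages. Transcripts of 1 locus can share sequence and reads, so these are not independent.

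Locus 3 was divided. Of its 594 transcripts, 478 were within 2-fold and 91 at least 2-fold higher, while 25 were at least 2-fold lower. Of the 91, 65 were beyond 8-fold and 59 beyond 16-fold. The 75 transcripts at least 4-fold higher had a median level of 885 in healthy flesh at 5 days and 66071 at 10 days, against 1841 and 971 in spongy flesh. They held 1.24% of the healthy reads at 5 days and 10.4% at 10 days, and 1.14% and 0.795% of the spongy reads. Thus the healthy 10-day library stood far above the other 3, and 63 transcripts of locus 3 had over 75% of their summed level in it. The other 519 had a median level of 3005 and 2508 in healthy flesh and 2996 and 3043 in spongy flesh, and their share of the healthy reads went from 24.1% to 4.27%. The set of 75 was picked by the ratio itself, so its size of difference is a description. By length, which the choice did not use, at least 4-fold higher were 32 of 97 transcripts under 1000 nt, 12 of 92 of 1000 to 2000 nt, 8 of 97 of 2000 to 4000 nt and 23 of 308 longer ones.

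The last loci of the assembly, 14031 to 14452, were the one range outside loci 2 and 3 whose median lay far from 0. Their 76 transcripts came from 76 loci and were short, with a median length of 258 nt against 1345 nt for all transcripts outside loci 2 and 3. At least 2-fold higher at 10 days were 54, and 3 lower, where 6.42% and 10.2% of all were. In 19 of the 76 the healthy 10-day library held over 75% of the summed level. Outside these loci and loci 2, 3 and 5547 this held for 16 of 21358. The minimum was set on a mean that includes this library, which favours a rise in such transcripts. The median level was 172 in healthy flesh at 5 days and 2566 at 10 days, and 683 and 759 in spongy flesh. By these normalized medians healthy flesh at 5 days was lowest and at 10 days highest, with both spongy libraries between. By share of all reads the order differed, since loci 14000 and over held 0.678% and 1.76% in healthy flesh and 1.94% and 2.10% in spongy flesh, and the healthy 10-day library lay below both spongy ones. The median log2 ratio was 4.12 in healthy and 0.12 in spongy flesh, where 75 of the 76 were within 2-fold. At least 4-fold higher were 48 of the 76, and these with locus 5547 left 325 such transcripts in the other loci. What these short transcripts encode is not given in the files, and the part of RNA quality or of library preparation in their levels was not tested.

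**Figure D3:**
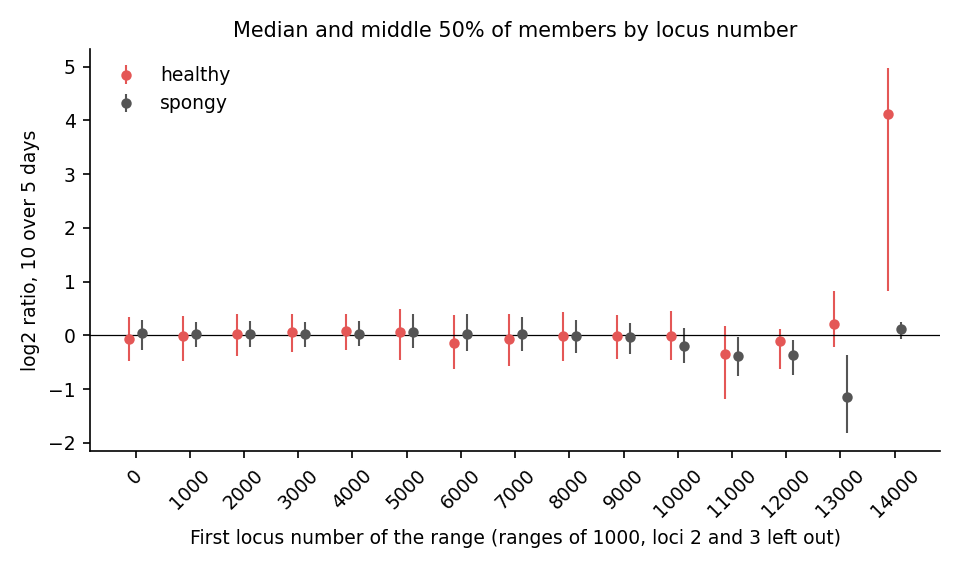
Median log2 ratio of 10 over 5 days (points) and the middle 50% of transcripts (lines) by locus number in ranges of 1000, for healthy and spongy flesh. Healthy medians lie between -0.35 and 0.22 up to locus 13991 and at 4.12 in the last range, where the spongy median is 0.12.

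Between locus 1 and locus 10994 the healthy medians by range ran from -0.13 to 0.08. Among these ranges the share at least 2-fold lower was smallest in loci 4000 to 4999, with 90 of 1842 (4.89%), and higher in loci 6000 to 6999, with 229 of 1434 (15.97%). In loci 11002 to 11997 it reached 28.9%, or 96 of 332 transcripts, against 9 higher, and the median log2 ratio was -0.35. The median level there was 97.2 at 5 days and 78.4 at 10 days in healthy flesh and 81.3 and 59.5 in spongy flesh, whose median log2 ratio was -0.38. Both kinds of flesh thus had the lower median at 10 days in this range.

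Shorter transcripts were more often past 2-fold than longer ones. Without loci 5547 and 14000 and over, 79 of 659 transcripts under 500 nt were at least 2-fold higher (11.99%) and 95 lower (14.4%). For 5163 transcripts of 2000 nt and over these were 179 (3.47%) and 473 (9.16%). Depth moved with length: in all loci but 2 and 3 the shortest class had a median of 145.5 reads at 5 days and 34 at 10 days, and the longest 1216 and 250. The part of depth in this order was not tested. The values that follow take in all loci but 2 and 3 unless said. By deposited mean, the median log2 ratio was 0.07 for means of 50 to 200, -0.02 for 200 to 1000 and -0.11 for 1000 and over. In the last class 224 of 3405 transcripts were past 2-fold upward and 417 downward. Loci with a single listed transcript held 222 of the 374 transcripts at least 4-fold higher and 182 of the 469 lower ones, among 5711 of the 21435. Without loci 5547 and 14000 and over they held 174 of 325 higher and 181 of 468 lower ones, among 5635 of 21358. That was 3.09% and 3.21% of the 5635. In loci with over 20 listed transcripts 2 of 1432 were past 4-fold upward and 46 downward.

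The order of transcripts within a library needs no scaling between libraries. Among the 100 transcripts with the most reads per kilobase outside loci 2 and 3, 53 were the same at 5 and 10 days in healthy flesh, as were 80 in spongy flesh. Of the highest 10, 3 were shared in healthy and 9 in spongy flesh, and of the highest 1000, 701 and 800. The 47 that entered the highest 100 at 10 days had a median place of 306 at 5 days, and 23 of them lay in loci 14000 and over. Those that left it had a median place of 72 at 5 days and 152 at 10 days, and 0 lay in these loci. Without loci 5547 and 14000 and over, 62 of the highest 100 were shared in healthy and 70 in spongy flesh. These shares, too, leave out loci 2 and 3. Of the reads per kilobase of the other transcripts, the highest 10 held 11.9% at 5 days and 68.1% at 10 days in healthy flesh. In spongy flesh they held 29.2% and 30.7%. Of these 10, loci 14000 and over gave 2 at 5 days and 9 at 10 days in healthy flesh. In spongy flesh they gave 5 and 6. Locus 5547 was 1 of the 10 in each library. The difference between healthy and spongy flesh was not tested.

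The stages of spongy flesh share no library with those of healthy flesh, so both ratios can be set side by side. In spongy flesh 955 transcripts outside loci 2 and 3 were past 2-fold upward (4.46%) and 667 downward (3.11%) from 5 to 10 days. Over all transcripts with a read in a spongy library these shares were 6.30% and 6.99%. Higher in both were 410 transcripts, 29.8% of the healthy list and 42.9% of the spongy list. Lower in both were 222, 10.2% of the healthy and 33.3% of the spongy list. Higher in healthy and lower in spongy flesh were 46, or 3.34% of the healthy list, near the 3.11% of all. Lower in healthy and higher in spongy flesh were 114, or 5.23% of the healthy list, near the 4.46% of all. Without the transcripts that 1 library carried, 256 were higher in both (21.6% and 37.1%) and 221 lower in both (10.3% and 34.1%). All these lists rest on the authors' scaling.

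Within 2-fold in spongy flesh were 920 of the 1376 transcripts at least 2-fold higher in healthy flesh (66.9%) and 1842 of the 2178 lower ones (84.6%). Of all 21435 transcripts outside loci 2 and 3, 19813 were within 2-fold in spongy flesh. There the log2 ratio was above 0 for 11146 of the 21435 and below 0 for 10289. The 325 at least 4-fold higher, without loci 5547 and 14000 and over, had a median level of 14.2 in healthy flesh at 5 days and 139 at 10 days, and of 138 and 425 in spongy flesh. Over the 325, the healthy median at 10 days was close to the spongy median at 5 days, which the smaller sets below did not keep. In spongy flesh 279 of the 325 had a log2 ratio above 0, 205 were past 2-fold upward, 103 within 2-fold and 17 past it downward. The level minimum bears on this count, since a transcript with few healthy reads was listed only if a spongy library was high. Without transcripts that 1 library carried, 223 of the 325 were left, with medians of 203 and 444 in spongy flesh, where 117 were past 2-fold upward, 95 within 2-fold and 11 past it downward. With the minimum of 50 set on the mean of the healthy libraries, 187 were left. Their medians were 79.5 and 753 in healthy flesh and 211 and 745 in spongy flesh. Of the 187, 112 were past 2-fold upward in spongy flesh, 72 within and 3 downward. At 5 days the spongy level of the 325 lay between the healthy ones for 164, above both for 107 and below both for 54. At 10 days it lay above both for 211. The 468 at least 4-fold lower had a median level of 324 and 48.8 in healthy flesh and of 287 and 253 in spongy flesh. The choice itself makes the healthy 10-day level the lower of the healthy ones. At 5 days the spongy level of the 468 lay between the healthy ones for 204, above both for 233 and below both for 31. At 10 days these were 209, 193 and 66. In spongy flesh 331 of the 468 had a log2 ratio below 0, but 338 were within 2-fold, 86 were at least 2-fold lower and 44 at least 2-fold higher.

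**Figure D4:**
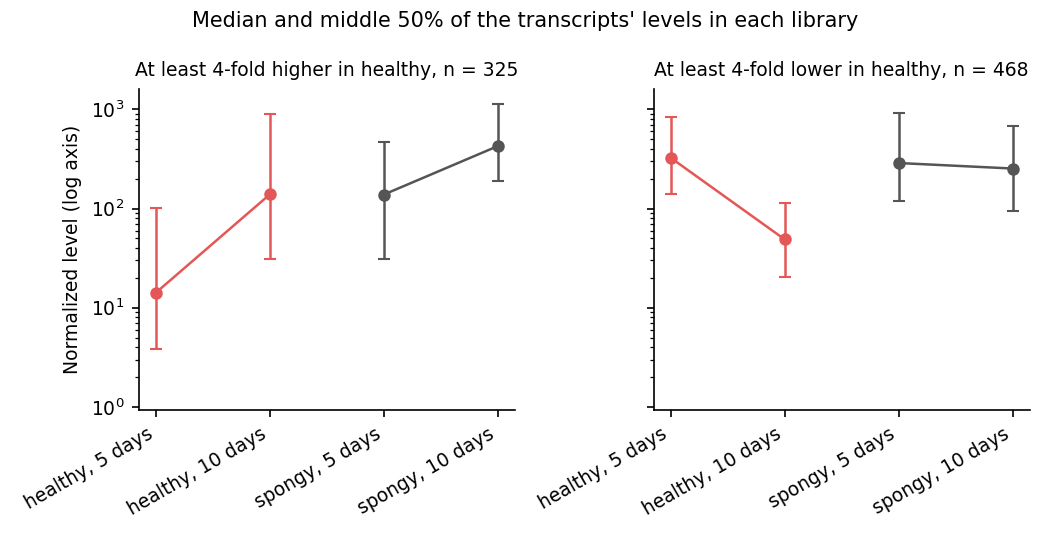
Median normalized level (points, log axis) and middle 50% of transcripts (bars) in each of the 4 libraries, for the transcripts of healthy flesh past 4-fold upward (325) or downward (468) at 10 days, without loci 2, 3, 5547 and 14000 and over. The choice fixes the direction in healthy flesh; in spongy flesh the medians go from 138 to 425 and from 287 to 253.

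How many transcripts were higher or lower depended on what was held constant between the libraries. With the same total of reads the median log2 ratio of the 21435 transcripts was -2.73, with 114 transcripts past 2-fold upward and 20880 downward (0.543% of those past 2-fold were higher, against 38.7% under the authors' scaling). Equal totals outside loci 2 and 3 gave a median of -0.73, with 519 higher and 7057 lower (6.85% higher). With the same total outside loci 2, 3, 5547 and 14000 and over it was 0.02, with 1456 higher and 2116 lower. TMM factors (trimmed mean of M values) gave 1360 and 2193, and the median of ratios of the healthy libraries alone 1391 and 2162. Both methods centre on the bulk of the transcripts, as the authors' size factors do, so their counts were bound to lie near. Relative to their own medians, the same total of reads gave 1453 higher and 2096 lower and the same total outside loci 2 and 3 gave 1421 and 2148. Centring removes most of the shift between scalings, so these counts were bound to lie near those of the authors' scaling. Under each of the 6 scalings 114 transcripts were at least 2-fold higher. Of these, 41 lay in loci 5547 and 14000 and over and 73 elsewhere, with a median level of 6.53 at 5 days and 172 at 10 days in healthy flesh and of 41.0 and 288 in spongy flesh. One library carried over 75% of the summed level for all but 30 of these 73. Lower under each were 2116. A scaling shifts all ratios nearly alike, so the 114 equal the count under the same total of reads. The 2116 equal the count under the same total outside loci 2, 3, 5547 and 14000 and over. These are thus not 6 separate checks. The total amount of RNA per fruit is not in the files, so whether the other transcripts were diluted or lost cannot be told apart.

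**Figure D5:**
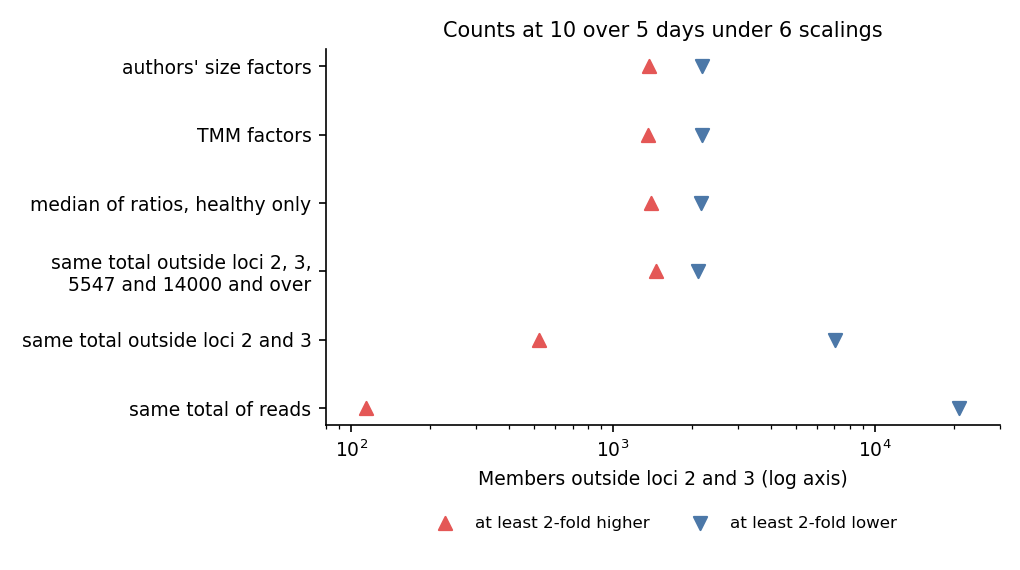
Number of transcripts outside loci 2 and 3 (log axis) past 2-fold upward (upward triangles) or downward (downward triangles) from 5 to 10 days in healthy flesh, under 6 scalings. The top 4 scalings give 1360 to 1456 higher and 2116 to 2193 lower, and the same total of reads gives 114 and 20880.

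The authors' deposited table for the stages of healthy flesh came from DESeq2. In the authors' deposited table none of the 21435 transcripts (0) had an adjusted p under 0.05, and the smallest was 0.999. An unadjusted p under 0.05 was given in the authors' deposited table for 182 of them (0.849%), 97 with a higher and 85 with a lower level at 10 days, and 45 of the 182 lay in loci 14000 and over. For locus 2 the authors' deposited table had 142 of 171 transcripts with an unadjusted p under 0.05, all higher at 10 days, and 0 with an adjusted p under 0.05. The authors' deposited table gave log2 fold changes with standard errors of 5.72 with 2.37 for locus 5547, 3.36 with 1.502 for locus 14262, -3.60 with 1.89 for locus 1732 and -2.97 with 1.51 for locus 3946. The unadjusted p in the authors' deposited table, from DESeq2, was 0.0156, 0.0250, 0.0564 and 0.04998 in the same order. That test, too, rested on 1 library of each group, and a count of 0 does not show that the stages are alike.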

How the data were processed

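Illumina libraries were made from column-purified RNA of fruit mesocarp, per the labels' protocols. CASAVA 1.8.2, Bowtie2 2.2.3 and DESeq2 are named in the submitters' processing notes. Of the assembly, the counter and the model the sources used here say nothing. The 4 deposited tables hold a mean normalized count (a signal averaged over the 4 libraries after division by size factors), the authors' log2 fold change with its standard error, a test statistic (a score) and p-values, per the file headers.

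Levels and reads of each library were recovered from the deposited mean and 3 fold changes. Under 1000 reads, 99.98% of 103991 recovered values were whole to within 0.05. With fold changes taken in the order of the table names, the best factor made 93.8% to 99.9% of the low values of a library whole, and 11.9% to 13.5% in the opposite reading. Which stage a table's name stands for rests on that name. Values under 0.35 read were set to 0. The recovery was tested on simulated data. No test between groups was run, since each group had 1 library. Folds of single transcripts have exact (Clopper-Pearson) 95% intervals for the split of reads.

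The transcripts, classes and lists were chosen with earlier results of these data known. Named transcripts were the 2 with the greatest gain and the 2 with the greatest loss in normalized level per kilobase, at least 4-fold apart and outside loci 2 and 3, at most 1 per locus. Locus 5547, loci 14000 and over as a block, and the sets within locus 3 were picked once their values had been seen. Alternatives changed the added value, the minimum, the scaling, the unit counted and the members. The minimum on the healthy libraries or on 3 libraries, and the sets without transcripts that 1 library carried, were chosen after the data were seen. TMM trimmed 30% of ratios and 5% of levels. The steps ran in Python 3.11.15 with scipy 1.17.1, numpy 2.4.6, matplotlib 3.10.9 and pandas 2.3.3.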

Additional observations from a re-analysis of the deposited data

Results flagged for a closer look

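Under the authors' scaling, loci 13018 to 13991 had medians of opposite sign in healthy and spongy flesh, and the difference was not tested. The healthy sign depends on that scaling. Equal totals outside loci 2 and 3 put the healthy median of all 21435 transcripts at -0.73, and the same total of reads at -2.73. A scaling shifts all ratios nearly alike, so the healthy median of this range would lie below 0 under either. The median log2 ratio of 10 over 5 days over their 67 transcripts was 0.22 in healthy flesh and -1.15 in spongy flesh. At least 2-fold higher were 13 in healthy and 0 in spongy flesh, and at least 2-fold lower were 7 and 35. The median level was 36.5 and 38.5 in healthy flesh at 5 and 10 days, and 167 and 57.7 in spongy flesh, so that the spongy 5-day library stood above the other 3. Many of these transcripts reached the minimum mean of 50 only through that library, which favours a fall in spongy flesh: 32 of the 67 had a mean of at least 50 over the other 3 libraries, and over these the medians were 0.31 in healthy and -0.38 in spongy flesh, where 5 were at least 2-fold lower.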

How the results depend on the processing

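The 2-fold counts outside loci 2 and 3 were 1376 higher and 2178 lower at 10 days, and the 4-fold counts 374 and 469. In the same order they were 114, 20880, 55 and 18910 with the same total of reads, while equal totals outside loci 2 and 3 gave 519, 7057, 192 and 1411. Without a level minimum they were 2537, 3778, 676 and 995, and with a deposited mean of at least 200 they were 680, 1374, 214 and 279. With the counting interval past the fold they were 639, 1099, 211 and 217. Summed by locus, 690 loci were 2-fold higher and 963 lower, and 262 were 4-fold higher and 238 lower. Loci 14000 and over, with 1 transcript each above the minimum, gave 48 of the higher and 1 of the lower at 4-fold. Locus 5547 was higher too, so at 4-fold more loci were higher than lower only with these loci included. With 10 in place of 1 added, 230 were 4-fold higher. TMM factors, the median of ratios of the healthy libraries, 0.5 added and leaving out transcripts that 1 library carried left each of these counts within 1.5 times of its value. So did, chosen after the data were seen, the scaling and the set without loci 5547 and 14000 and over. The centred ratios, chosen likewise, also did, but centring removes most of the shift between scalings. TMM factors and the median of ratios also centre on the bulk of the transcripts, with median log2 ratios of -0.01 and -0.0003. Their nearness to the authors' scaling was thus built in. The signs of the medians of loci 2 and 3 and of the 4 named transcripts were the same under every scaling and added value; the median of locus 3 was -0.05, and -2.79 with the same total of reads. That median of locus 2 was 4.28, and 1.54 with the same total. No paired analysis was possible because the labels give no replicate numbers. With 1 library per group none could be left out. Depth limits the transcripts with few reads at 10 days most.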

Other observations

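Most loci with a transcript past 2-fold in healthy flesh did not have all their transcripts past it in 1 direction. Of 4054 loci with 2 or more transcripts outside loci 2 and 3, 1083 had a transcript at least 2-fold apart between the stages. All their transcripts were at least 2-fold higher in 66 loci and lower in 147, and 51 loci held both. The range of log2 ratios within a locus had a median of 0.50, which was not set against transcripts of different loci. Locus 1732 had 8 listed transcripts. Besides the one named above, 4 of its 7 others were at least 4-fold lower at 10 days in healthy flesh, with log2 ratios over the 7 from -4.38 to -0.81. These 7 together had 17905 and 1112 reads in healthy flesh and 64952 and 105094 in spongy flesh at 5 and 10 days.

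By rank of reads per kilobase over the 21435 transcripts, the healthy libraries of 5 and 10 days had a Spearman correlation of 0.86, and the spongy ones of 0.89. Healthy and spongy flesh had 0.75 at 5 days and 0.67 at 10 days. These correlations are across transcripts, which share length and sequence composition and are not independent, and they carry no p-value. Transcripts thus ranked more alike between the stages of one kind of flesh than between healthy and spongy flesh of one stage in these 4 libraries.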
